A study of Mus musculus with 24 samples.

Results

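The genes described here encode brakes on MTORC1, the kinase complex that couples growth to nutrients and growth factors. They are the sestrins *Sesn1*, *Sesn2* and *Sesn3*, *Ddit4* (also called REDD1), *Castor2*, and the 3 subunits of the TSC complex, *Tsc1*, *Tsc2* and *Tbc1d7*. The 8 genes were taken by gene name from a table of 55487 genes, and all 8 were among the 15401 genes with enough counts to be tested. mRNA was sequenced from WT mouse embryonic fibroblasts (MEFs) and from MEFs lacking both TFEB and TFE3 (*tfeb tfe3* DKO), with 4 libraries in each of 6 groups and 24 libraries in all. Both lines were treated with vehicle (DMSO at 0.1%), with 100 nM torin1, which blocks the kinase site of MTOR, or with 10 µM MK-8722, which activates AMPK directly. The duration of treatment before RNA was taken is not given in the sources used here. WT and DKO MEFs are separate lines obtained from another laboratory, so an effect of the missing genes and a difference between the lines cannot be told apart. The comparisons ask which of these brakes responded to each drug, and whether the response depended on TFEB and TFE3, a pair of related transcription factors that MTORC1 holds in the cytoplasm.

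MTORC1 is switched on at the lysosome by the Rag GTPases, which report amino acids, and by RHEB, which reports growth factors. Sestrins and CASTOR proteins act on the amino acid branch, through the GATOR2 complex. The leucine sensor SESN2 and the arginine sensor CASTOR1 bind GATOR2 when their amino acid is scarce, and this leaves GATOR1 free to switch the Rags off. The TSC complex acts on the growth factor branch, where TSC2 is the GAP for RHEB, TSC1 stabilises TSC2 and TBC1D7 is the smallest subunit. DDIT4 is a stress protein that favours TSC2 activity. *Sesn2* and *Ddit4* are known as targets of ATF4, a transcription factor of the stress response whose translation MTORC1 promotes, while *Sesn1* is known as a target of p53 and *Sesn3* as a target of FOXO factors.

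The upstream sequence of 4 members is shown here. *Sesn2* and *Ddit4* had the deepest falls with torin1, *Tsc1* had the largest rise with torin1, and *Tbc1d7* holds an E box. All 8 members matched the RefSeq promoter table (GRCm38.p6), with 9 promoters in all because *Sesn1* has 2. The stretches are 150 bases each, given 5′ to 3′ in the direction of the gene and without bases of annotated exons, and capitals mark a match to a searched motif. They lie at chr4:132510502-132510651 on the minus strand for *Sesn2*, chr10:59951835-59951984 on the minus strand for *Ddit4*, chr2:28641078-28641227 on the plus strand for *Tsc1* and chr13:43171502-43171651 on the minus strand for *Tbc1d7*.
Sesn2: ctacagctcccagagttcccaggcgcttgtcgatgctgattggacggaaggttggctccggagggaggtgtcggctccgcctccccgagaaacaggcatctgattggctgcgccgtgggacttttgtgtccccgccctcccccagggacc
Ddit4: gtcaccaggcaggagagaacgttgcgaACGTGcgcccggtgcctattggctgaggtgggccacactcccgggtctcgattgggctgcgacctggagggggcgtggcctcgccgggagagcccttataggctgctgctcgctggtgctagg
Tsc1: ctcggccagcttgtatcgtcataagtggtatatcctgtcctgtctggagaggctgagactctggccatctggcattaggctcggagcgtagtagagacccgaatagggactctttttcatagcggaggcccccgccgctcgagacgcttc
Tbc1d7: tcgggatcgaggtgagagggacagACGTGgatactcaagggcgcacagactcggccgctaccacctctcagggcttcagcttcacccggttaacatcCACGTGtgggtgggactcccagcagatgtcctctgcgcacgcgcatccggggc

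The motifs were searched on both strands of the whole promoter entries, which also take in the first transcribed bases. Only exact matches were counted, and sites farther from the start than these short entries reach were not searched. The promoters of 1 chromosome, which holds none of the members, were left out, so shares of all promoters are over the remaining 32851. CACGTG, the E box that TFEB and TFE3 can bind, was found in 1 of the 9 promoters, that of *Tbc1d7*, from -53 to -48, against 7.15% of 32851 promoters. TCACGTGA, the E box with the flanks of the lysosomal CLEAR motif, was in none of the 9 promoters and in 0.974% of all. TGATGNAA, a site for ATF4 with a CEBP partner, was also in none of the 9 and in 3.97% of all. TGTTTAC, a FOXO motif, was in 1 promoter, the upstream one of *Sesn1*, 22 to 28 bases after the start, and in 3.65% of all. ACGTG, the core of the hypoxia response element, was in those of *Ddit4* and *Tbc1d7* and in 19.6% of all promoters, and of the 4 matches in *Tbc1d7* those from -53 to -49 and from -52 to -48 lie inside the E box, while those from -126 to -122 and from 5 to 9 do not.

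On GRCm38 the sestrins lie at chr10:41809935-41908424 (*Sesn1*, plus strand), chr4:132492032-132510501 (*Sesn2*, minus strand) and chr9:14275067-14333101 (*Sesn3*, plus strand). *Castor2* is at chr5:134099711-134144343 on the plus strand and *Ddit4* at chr10:59949669-59951834 on the minus strand. *Tsc1* is at chr2:28641228-28691167 on the plus strand, *Tsc2* at chr17:24595816-24632630 and *Tbc1d7* at chr13:43151740-43171501, both on the minus strand.

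Total counts per library ranged from 24668870 to 33332507. *Tfeb* mRNA checked the labels: it was 22.9 ± 1.74 CPM (counts relative to the TMM-scaled library size, mean ± SD, n = 4) in WT and 2.25 ± 0.289 CPM in DKO under DMSO. *Tfe3* mRNA was 120 ± 1.17 CPM in WT and 124 ± 2.11 CPM in DKO under DMSO, so its level does not separate the lines. Fibroblast markers summed to between 5953 and 10012 CPM per library, while markers of epithelium, endothelium, leukocytes and muscle each stayed at or below 14.5 CPM in sum. The fibroblast markers were not all high, since *Thy1* ranged from 0 to 4.51 CPM. *Adgre1*, a macrophage marker, had no count. Some of the low sums of the other cell types moved with the groups. The leukocyte sum, mostly *Cd68*, was 1.57 to 2.24 CPM in WT with DMSO, 4.15 to 6.41 with torin1 and 10.1 to 14.3 with MK-8722, and in DKO 4.10 to 6.10, 4.78 to 8.59 and 7.86 to 11.2 CPM. The epithelium sum was 2.77 to 4.58 CPM with DMSO and 5.55 to 7.45 with torin1 in WT, and in DKO it was 2.99 to 4.87 CPM with DMSO, 9.88 to 14.5 with torin1 and 5.97 to 11.2 with MK-8722. The muscle sum was 3.13 to 3.78 CPM with DMSO and 5.74 to 7.20 with torin1 in WT, and at or below 1.26 CPM in DKO, while the endothelium sum stayed at or below 1.37 CPM. Of the epithelium markers *Krt8* reached 14.15 CPM and the others at most 1.86 CPM. Of the muscle markers *Des* reached 6.95 CPM and the others at most 0.331 CPM. Of the leukocyte markers other than *Cd68* none exceeded 0.195 CPM. The part of these sums in the results was not tested. WT cultures at passage 11 differed from other WT passages in 1176 genes, none of them a member, and DKO cultures at passage 8 differed in 435 genes, *Sesn1* among them. Nothing in the labels says that libraries of a group came from separate animals, so p-values measure the spread between cultures of 1 line.

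Torin1 lowered 4 of these 8 brakes in WT MEFs and raised 1. A call needed 1.2-fold or more and, in edgeR's quasi-likelihood test over all genes, an adjusted p (Benjamini-Hochberg) under 0.05. By that rule *Sesn1*, *Sesn2*, *Ddit4* and *Castor2* fell, which is 4 of 8 members against 20.5% of all genes, and *Tsc1* rose, which is 1 of 8 against 26.6%. *Sesn3*, *Tsc2* and *Tbc1d7* were not called. In 6 of the 8 members the torin1 and DMSO libraries did not overlap, against 54.1% of all genes. The median log2 fold change of the 8 members was -0.23, against 0.05 for all genes tested. The deepest falls were large for single genes, since *Ddit4* ranked 13 and *Sesn2* ranked 54 from the lowest of 15401 log2 fold changes.

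**Figure D1:**
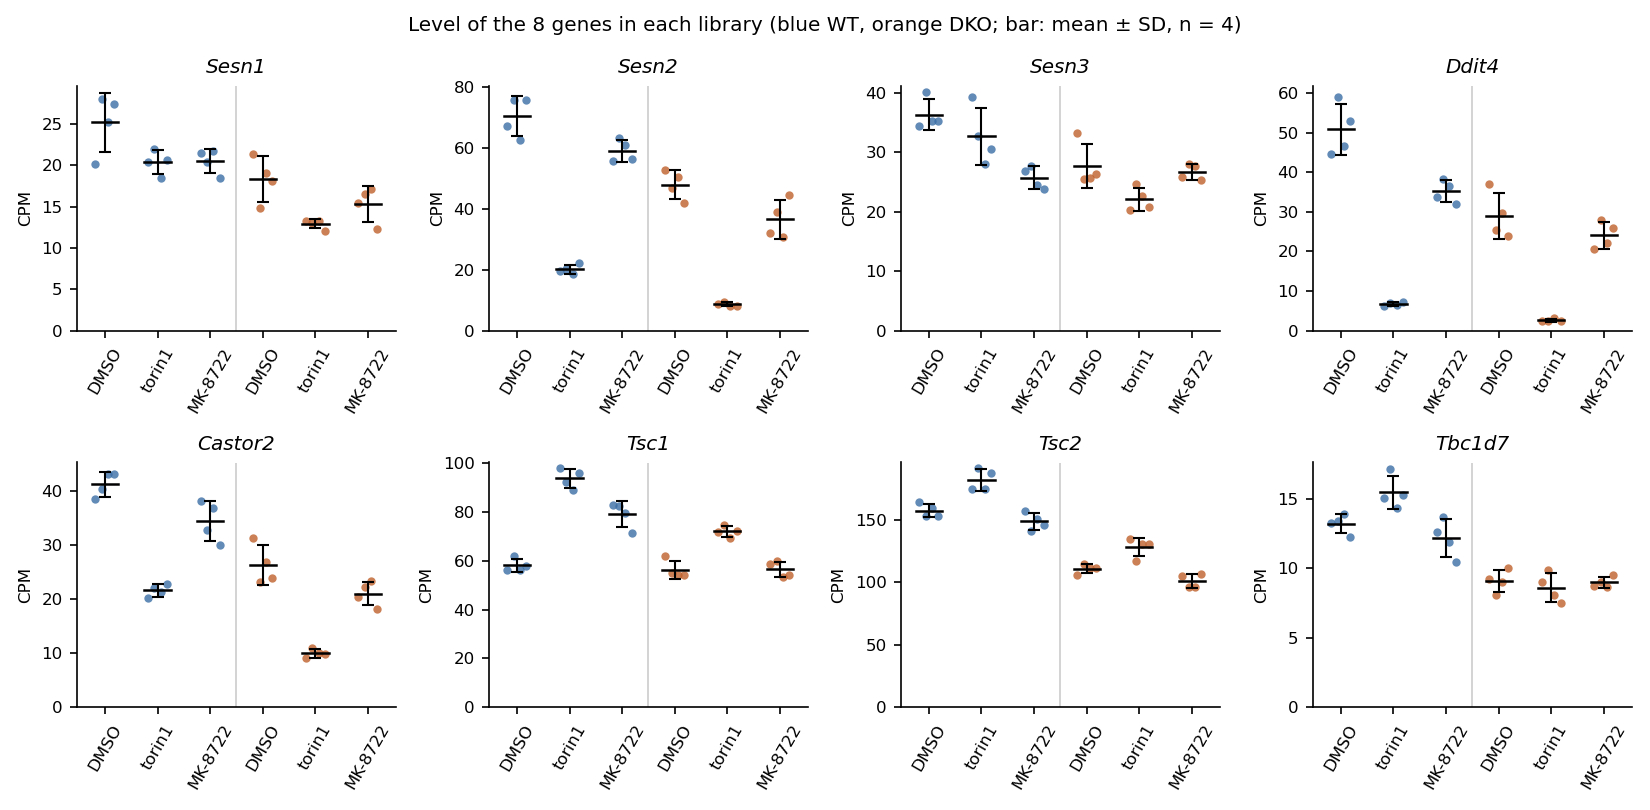
Level of each member in every library, in CPM from 0 on the vertical axis, for 3 treatments in WT (blue) and DKO (orange) MEFs; points are libraries and bars are the mean ± SD (n = 4). *Sesn2*, *Ddit4* and *Castor2* sit lowest with torin1 within each genotype, *Tsc1* is highest with torin1, and *Tsc2* and *Tbc1d7* lie lower in DKO than in WT under every treatment.

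*Ddit4* had the largest change of the 8. In WT it stood at 44.6, 58.9, 46.7 and 52.9 CPM with DMSO, and at 6.27, 6.99, 6.49 and 7.34 CPM with torin1. Every torin1 library was far below every DMSO library, and *Ddit4* fell by 2.91 on the log2 scale, or 7.5-fold (SE 0.13, adjusted p = 3.02e-14). In DKO it stood at 37.0, 25.5, 29.7 and 23.9 CPM with DMSO, and at 2.5, 2.35, 3.13 and 2.39 CPM with torin1, so it fell by 3.48 on the log2 scale, or 11.2-fold (SE 0.15, adjusted p = 1.57e-14). The lowest of its 24 libraries held 64 counts.

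*Sesn2* had the second largest fall. Its WT libraries held 67.3, 76.0, 62.7 and 75.8 CPM with DMSO and 19.6, 20.4, 18.7 and 22.1 CPM with torin1. The groups did not overlap, and *Sesn2* fell by 1.80 on the log2 scale, or 3.49-fold (SE 0.10, adjusted p = 6.75e-13). In DKO MEFs it held 52.7, 47.0, 50.6 and 42.1 CPM with DMSO and 8.77, 9.52, 8.19 and 8.18 CPM with torin1. There it fell by 2.47 on the log2 scale, or 5.55-fold (SE 0.11, adjusted p = 2.23e-14).

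*Castor2*, a paralog of the arginine sensor *Castor1*, fell less deeply. In WT it stood at 38.4, 40.3, 43.2 and 43.1 CPM with DMSO and at 20.2, 22.1, 21.3 and 22.8 CPM with torin1, a fall of 0.93 on the log2 scale, or 1.91-fold (SE 0.09, adjusted p = 6.67e-09). In DKO it stood at 31.3, 23.2, 26.9 and 23.9 CPM with DMSO and at 9.11, 11.0, 9.95 and 9.86 CPM with torin1, a fall of 1.40, or 2.64-fold (SE 0.10, adjusted p = 2.99e-11). Its paralog went the other way: *Castor1* rose with torin1 by 0.56 on the log2 scale in WT (SE 0.09, adjusted p = 1.12e-05) and by 0.97 in DKO (SE 0.09, adjusted p = 2.12e-09).

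*Sesn1* and *Sesn3* changed less with torin1 than *Ddit4*, *Sesn2* and *Castor2*. *Sesn1* ranged from 20.1 to 28.0 CPM with DMSO and from 18.5 to 22 CPM with torin1 in WT, so the groups overlapped, and its fall of 0.30 on the log2 scale (SE 0.11, adjusted p = 0.0177) lost its call in 5 of 18 alternatives. These include leaving out WT replicate 2 or 4 under DMSO, with adjusted p = 0.0639 and 0.0574. In DKO *Sesn1* ranged from 14.8 to 21.4 CPM with DMSO and from 12.1 to 13.3 CPM with torin1, without overlap, a fall of 0.51 (SE 0.11, adjusted p = 4.77e-04). *Sesn3* ranged from 34.5 to 40.1 CPM with DMSO and from 28.1 to 39.3 CPM with torin1 in WT, and its log2 fold change was -0.15 (SE 0.09, adjusted p = 0.163), which became a call without WT replicate 1 under torin1 (-0.28, adjusted p = 0.00713). In DKO *Sesn3* fell by 0.33 (SE 0.10, adjusted p = 0.00547), and this call ended without DKO replicate 1 under DMSO (adjusted p = 0.0507) and with an offset for the length of the transcripts in use (adjusted p = 0.257).

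None of the TSC subunits was called lower with torin1 in either genotype. *Tsc1* stood at 56.2, 61.9, 56.4 and 57.7 CPM with DMSO and at 98.0, 92.2, 89.2 and 95.9 CPM with torin1 in WT. All torin1 libraries were above all DMSO libraries, and *Tsc1* rose by 0.69 on the log2 scale, or 1.62-fold (SE 0.05, adjusted p = 1.63e-10). In DKO it stood at 62.0, 54.8, 54.3 and 54.0 CPM with DMSO and at 72.0, 74.6, 69.4 and 72.2 CPM with torin1, a rise of 0.36, or 1.28-fold (SE 0.05, adjusted p = 4.85e-06). *Tsc2* had adjusted p-values of 6.10e-04 in WT and 6.38e-04 in DKO, but log2 fold changes of 0.21 in both (SE 0.05 in both), which is under the limit of 1.2-fold. *Tbc1d7* had log2 fold changes of 0.23 in WT (SE 0.09, adjusted p = 0.0259) and -0.08 in DKO (SE 0.09, adjusted p = 0.485) and was not called either. All torin1 libraries of *Tsc2* in both genotypes, and of *Tbc1d7* in WT, lay above those of DMSO. Scaling by library size alone made calls of both genes in WT (0.30 and 0.32). An offset for the length of the transcripts in use made a call of *Tsc2* in DKO (0.29). In DKO torin1 lowered 5 of 8 members, *Sesn3* joining the 4 of WT, against 20.2% of all genes. It raised *Tsc1*, 1 of 8 members, against 23%. The torin1 and DMSO libraries of DKO did not overlap in 7 of 8 members, against 52.8% of all genes.

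MK-8722 moved fewer of these genes, 4 in WT and 2 in DKO. In WT it lowered *Sesn1*, *Sesn3* and *Ddit4*, which is 3 of 8 members against 5.87% of all genes, and raised *Tsc1*, 1 of 8 against 10.3%. In DKO it lowered *Sesn2* and *Castor2*, 2 of 8 against 3.21%, and raised none of the members, while 5.47% of all genes rose. The MK-8722 and DMSO libraries did not overlap in 4 of 8 members in WT, against 29.8% of all genes, and overlapped in all 8 in DKO, where 21.1% of all genes did not overlap. Each drug was set against the same DMSO libraries of its genotype, so the comparisons of both drugs share their controls.

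*Ddit4* stood at 33.8, 38.3, 36.5 and 32.0 CPM with MK-8722 in WT, all below the DMSO libraries, and fell by 0.53 on the log2 scale (SE 0.12, adjusted p = 0.00111). In DKO it stood at 20.6, 28.0, 22.2 and 25.8 CPM, where the higher libraries overlapped those of DMSO, with a log2 fold change of -0.27 (SE 0.12, adjusted p = 0.115). With passage as a block this became a call (-0.26, adjusted p = 0.0102). *Sesn2* had log2 fold changes of -0.25 in WT (SE 0.09, adjusted p = 0.0458), under the limit of 1.2-fold, and fell by 0.39 in DKO (SE 0.10, adjusted p = 0.00520). In WT its libraries held 56.0, 63.2, 61.1 and 56.5 CPM and in DKO 32.2, 39.0, 30.7 and 44.6 CPM, and in both genotypes they overlapped those of DMSO. *Castor2* was similar, with -0.26 in WT (SE 0.09, adjusted p = 0.0297), again under the fold limit, and a fall of 0.32 in DKO (SE 0.09, adjusted p = 0.0137). The *Castor2* call in DKO ended without DKO replicate 1 under DMSO (adjusted p = 0.0663), which leaves 1 of the 8 members called there. In WT both genes passed the fold limit when single libraries were left out, *Sesn2* without replicate 3 under DMSO or replicate 2 under MK-8722 (log2 fold changes -0.31 and -0.29), and *Castor2* without replicate 1 or 2 under DMSO or replicate 1 or 3 under MK-8722 (from -0.32 to -0.27).

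*Sesn3* ranged from 23.8 to 27.8 CPM with MK-8722 in WT, below the DMSO libraries of 34.5 to 40.1 CPM, and fell by 0.50 on the log2 scale (SE 0.09, adjusted p = 2.73e-04). In DKO its log2 fold change was -0.05 (SE 0.09, adjusted p = 0.749). *Sesn1* fell by 0.30 in WT (SE 0.11, adjusted p = 0.0405), with overlapping libraries, and lost this call in 8 of 18 alternatives, among them the fits without WT replicate 2, 3 or 4 under DMSO and without WT replicate 2 or 4 under MK-8722 (adjusted p from 0.0619 to 0.125). In DKO its log2 fold change of -0.26 (SE 0.11, adjusted p = 0.104) became a call without replicate 2 under DMSO (adjusted p = 0.0306).

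*Tsc1* stood at 82.9, 82.5, 79.7 and 71.5 CPM with MK-8722 in WT, all above DMSO, and rose by 0.45, or 1.36-fold (SE 0.05, adjusted p = 9.43e-07). In DKO the *Tsc1* libraries held 58.7, 59.7, 53.3 and 54.3 CPM, and the log2 fold change of 0.01 had a 95% interval from -0.11 to 0.12. *Tsc2* and *Tbc1d7* were not called with MK-8722 in either genotype, with log2 fold changes from -0.13 to -0.02.

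**Figure D2:**
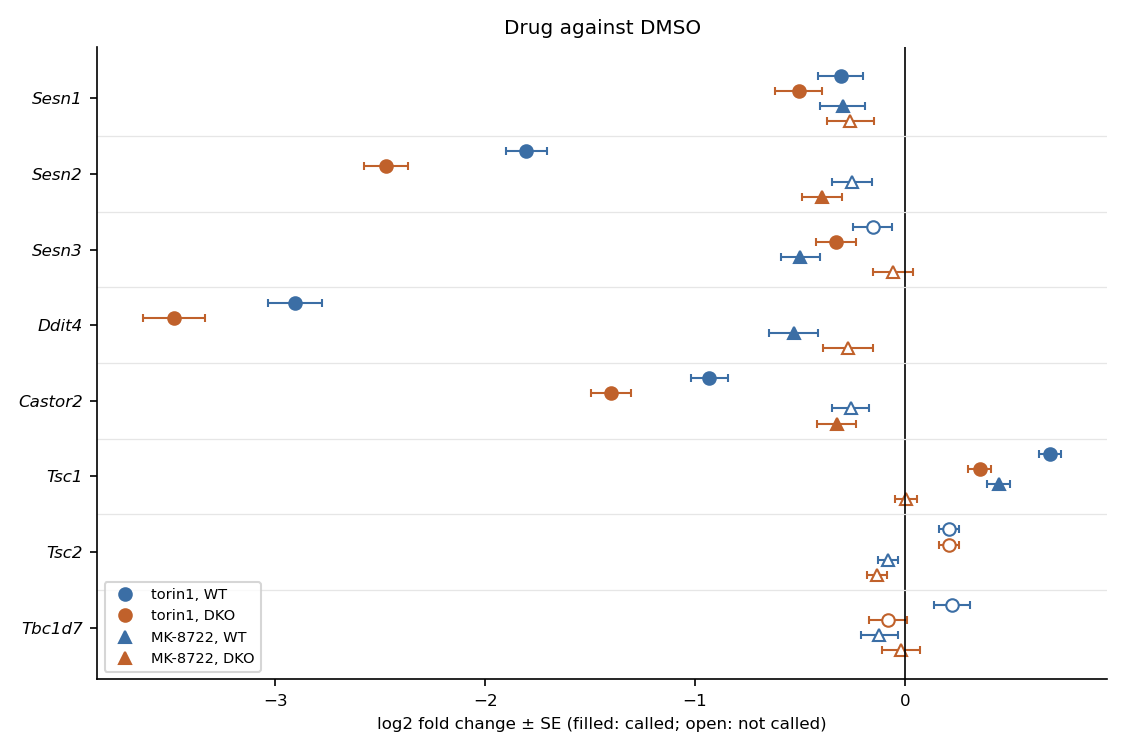
Log2 fold change of each member with torin1 (circles) and MK-8722 (triangles) against DMSO in WT (blue) and DKO (orange), with bars for the SE; filled symbols were called and open ones were not. *Ddit4* reaches -2.91 in WT and -3.48 in DKO with torin1, and *Tsc1* lies to the right of 0 in 3 comparisons and at 0.01 with MK-8722 in DKO.

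Set directly against each other, torin1 and MK-8722 gave different levels of 6 of 8 members in WT, against 44.9% of all genes in either direction, and of 6 of 8 in DKO, against 40.4%. *Ddit4* was lower with torin1 than with MK-8722 by 2.38 on the log2 scale in WT (SE 0.13) and by 3.21 in DKO (SE 0.15). *Sesn2* was lower by 1.55 (SE 0.10) and 2.08 (SE 0.11), and *Castor2* by 0.67 (SE 0.09) and 1.07 (SE 0.10). *Sesn3* changed place between genotypes, being higher with torin1 in WT by 0.34 (SE 0.09, adjusted p = 0.00309) and lower with torin1 in DKO by 0.27 (SE 0.10, adjusted p = 0.0189). The *Sesn3* call in WT fell under the fold limit without WT replicate 1 under torin1 (0.22) and without the passage 11 libraries (0.26). That in DKO was lost in 7 of 18 alternatives, among them the fits without replicate 1 or 4 under torin1 and without replicate 2 or 3 under MK-8722 (from -0.25 to -0.23), and with the offset for transcript length it was 0.00 (adjusted p = 1.00). *Tsc2* was higher with torin1 in both, by 0.29 (SE 0.05) and 0.34 (SE 0.05), of which the WT value fell under the fold limit without WT replicate 2 under MK-8722 (0.25), while *Tsc1* had 0.25 in WT (SE 0.05), under the fold limit, and was higher by 0.35 in DKO (SE 0.05). *Tbc1d7* was higher with torin1 in WT by 0.35 (SE 0.09), and had a log2 difference of -0.06 in DKO (SE 0.09). *Sesn1* was called in neither genotype, with -0.01 in WT (SE 0.11) and -0.25 in DKO (SE 0.11), the latter a call without DKO replicate 4 under MK-8722 (-0.33, adjusted p = 0.0142).

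The brakes were lower in DKO than in WT nearly throughout. Under DMSO 7 of 8 members were called lower, against 24.6% of all genes, and none was called higher, against 23.5%. Under torin1 all 8 were lower, against 27.8%, with none higher, against 24%. Under MK-8722 7 of 8 were lower, against 25.4%, with none higher, against 23.3%. The exceptions were *Tsc1* under DMSO and *Sesn3* under MK-8722. The median log2 difference of the 8 members was -0.52 under DMSO, -0.75 under torin1 and -0.51 under MK-8722, against -0.01, -0.04 and -0.01 for all genes.

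Among the TSC subunits, *Tsc2* differed by nearly the same amount under each treatment. It ranged from 153 to 164 CPM in WT and from 106 to 115 CPM in DKO under DMSO, a log2 difference of -0.51 (SE 0.05, adjusted p = 3.82e-09), and the differences were -0.50 under torin1 and -0.56 under MK-8722 (SE 0.05 in each). A stretch of 693 bases, or 7.20% of the exonic bases of *Tsc2*, is shared with *Pkd1* on the opposite strand, and the libraries are described as strand-specific. *Tbc1d7* ranged from 12.3 to 13.9 CPM in WT and from 8.07 to 9.99 CPM in DKO under DMSO, a log2 difference of -0.54 (SE 0.09, adjusted p = 1.21e-05). Under torin1 that gap was -0.85 (SE 0.09) and under MK-8722 -0.44 (SE 0.09). *Tsc1* had a log2 difference of -0.04 under DMSO (SE 0.05, adjusted p = 0.482), and was lower in DKO by 0.38 under torin1 (SE 0.05) and by 0.49 under MK-8722 (SE 0.05).

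In the amino acid branch, *Sesn2* was lower in DKO by 0.55 on the log2 scale under DMSO (SE 0.09, adjusted p = 2.38e-05), by 1.22 under torin1 (SE 0.11) and by 0.69 under MK-8722 (SE 0.10). *Castor2* was lower by 0.65 (SE 0.09, adjusted p = 1.37e-06), 1.11 (SE 0.10) and 0.71 (SE 0.09). *Castor1* again went the other way, being higher in DKO by 0.54 under DMSO (SE 0.09, adjusted p = 1.77e-05). *Sesn1* was lower in DKO by 0.45, 0.66 and 0.42 under DMSO, torin1 and MK-8722 (SE 0.11 in each). *Ddit4* was lower by 0.80 (SE 0.12, adjusted p = 2.58e-06), 1.38 (SE 0.16) and 0.54 (SE 0.12).

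*Sesn3* depends on how transcript length is treated. Its counts were lower in DKO by 0.39 under DMSO (SE 0.09, adjusted p = 9.22e-04) and by 0.56 under torin1 (SE 0.09, adjusted p = 1.58e-05). With an offset for the mean length of the transcripts in use, the log2 difference was 0.00 under DMSO (adjusted p = 0.986) and -0.28 under torin1 (adjusted p = 0.141). In TPM, a scale that allows for transcript length, *Sesn3* was 9.70 ± 0.946 in WT and 9.50 ± 2.01 in DKO under DMSO (mean ± SD, n = 4).

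**Figure D3:**
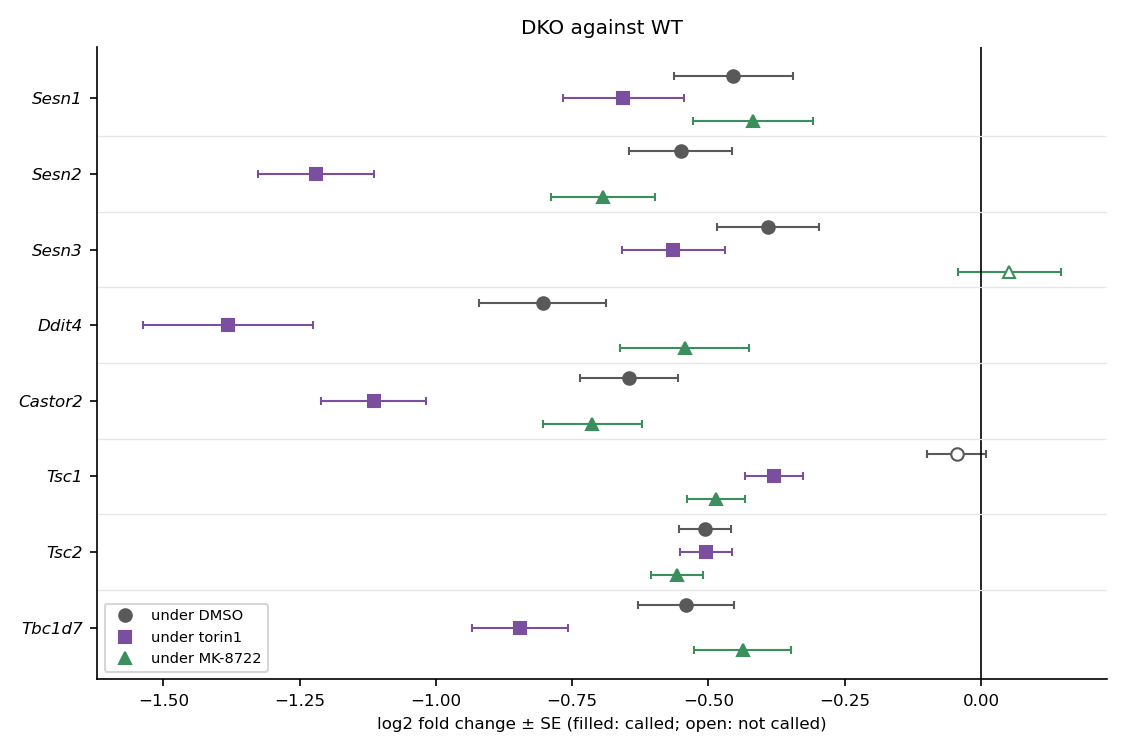
Log2 difference of each member between DKO and WT MEFs under DMSO (circles), torin1 (squares) and MK-8722 (triangles), with bars for the SE; filled symbols were called. All points lie at or below 0.05, and only *Tsc1* under DMSO and *Sesn3* under MK-8722 are open.

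Whether a drug acted differently in the absence of TFEB and TFE3 was tested as the difference of the responses on the log2 scale. For torin1 the response was lower in DKO for *Sesn2*, *Ddit4*, *Castor2* and *Tsc1*, 4 of 8 members against 6.33% of all genes, and higher for none, against 4.68%. These are deeper falls for *Sesn2*, by 0.67 (SE 0.14, adjusted p = 0.00231), for *Castor2*, by 0.47 (SE 0.13, adjusted p = 0.0170), and for *Ddit4*, by 0.58 (SE 0.20, adjusted p = 0.0490), but a smaller rise for *Tsc1*, by 0.34 (SE 0.08, adjusted p = 0.00361). The calls of *Sesn2*, *Castor2* and *Tsc1* held in all 27 alternatives. That of *Ddit4* did not, with an adjusted p over 0.05 in 18 of 27, including each fit without 1 of the 4 torin1 libraries of WT, without WT replicate 1, 3 or 4 under DMSO, without DKO replicate 1, 2 or 4 under torin1, and without DKO replicate 1 or 3 under DMSO (adjusted p from 0.0635 to 0.112).

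For MK-8722 the response of *Tsc1* was lower in DKO by 0.44 (SE 0.08, adjusted p = 3.99e-04), 1 of 8 members against 4.08% of all genes, and this held in all 27 alternatives. That of *Sesn3* was higher in DKO by 0.44 (SE 0.13, adjusted p = 0.0463), 1 of 8 against 1.42%, and was lost in 16 of 27 alternatives, with adjusted p from 0.0534 to 0.700. Among these are the fits without any 1 of the WT libraries of DMSO, without DKO replicate 2, 3 or 4 under DMSO, without DKO replicate 1, 2 or 3 under MK-8722, and without WT replicate 3 or 4 under MK-8722. Of *Sesn1*, *Tsc2* and *Tbc1d7* no response was called different between genotypes. For *Tsc2* the difference in the torin1 response was 0.00, with a 95% interval from -0.14 to 0.14. For *Tbc1d7* it was -0.30 (SE 0.12, adjusted p = 0.108).

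The order of the groups differed by gene. *Sesn2* was highest in WT with DMSO and lowest in DKO with torin1 (8.67 ± 0.632 CPM), and the neighbours with overlapping libraries were DMSO and MK-8722 within each genotype. *Ddit4* had the same order of means, and of its neighbours WT with MK-8722 overlapped DKO with DMSO, and DKO with DMSO overlapped DKO with MK-8722. *Castor2* overlapped between WT with MK-8722 and DKO with DMSO, and placed WT with torin1 (21.6 ± 1.15 CPM) level with DKO with MK-8722 (21 ± 2.21 CPM), which overlapped. *Tsc1* was highest in WT with torin1 (93.8 ± 3.92 CPM), and the lowest 3 groups, WT with DMSO and DKO with MK-8722 or DMSO, overlapped at 56.3 to 58.1 CPM on average. For *Sesn1* and *Sesn3* every pair of neighbouring groups overlapped. *Tsc2* and *Tbc1d7* held all 3 WT groups above all 3 DKO groups, and both were highest in WT with torin1, at 182 ± 8.52 CPM and 15.5 ± 1.18 CPM.

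Levels between genes were compared in TPM. In WT with DMSO *Tsc2* was the most abundant at 82.9 ± 4.62 TPM, followed by *Ddit4* at 47.0 ± 6.0, *Sesn2* at 31.5 ± 3.01 and *Tbc1d7* at 20.2 ± 2.10 TPM. *Tsc1* (12.6 ± 0.625 TPM), *Sesn1* (12.3 ± 1.62 TPM), *Sesn3* (9.70 ± 0.946 TPM) and *Castor2* (8.92 ± 0.245 TPM) were the least abundant. In DKO with torin1 *Castor2* was again lowest, at 2.39 ± 0.399 TPM, next to *Ddit4* at 2.45 ± 0.343 TPM, while *Tsc2* was at 65.7 ± 4.35 TPM.

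*Sesn1* is transcribed from 2 starts, and their balance differed between groups. Sesn1-202 begins at base 41809935 and Sesn1-201 at base 41887439 of chromosome 10 (GRCm38, plus strand). Shares are of the gene's TPM as salmon estimated it, they carry an estimation error that the files do not give, and they were not tested. The 150 bases before the downstream start, chr10:41887289-41887438, are shown because its transcript took the changing share, and they hold none of the searched motifs.
Sesn1: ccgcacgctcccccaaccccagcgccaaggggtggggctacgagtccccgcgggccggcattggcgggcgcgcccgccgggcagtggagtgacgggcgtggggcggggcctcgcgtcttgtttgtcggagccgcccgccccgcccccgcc

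In WT the share of Sesn1-201 was 56.1%, 49.8%, 52.2% and 45.6% with DMSO and 59.2%, 60.7%, 59.3% and 64.9% with torin1. The torin1 libraries all lay above the DMSO libraries. In mean TPM the upstream transcript went from 6.08 with DMSO to 4.29 with torin1, while Sesn1-201 went from 6.22 to 6.75. In DKO the share of Sesn1-201 was 37.3%, 36.1%, 40.4% and 40.9% with DMSO, below every WT library of DMSO, and 48.1%, 44.5%, 44.2% and 37.3% with torin1, which overlapped. With MK-8722 it ranged from 50.9% to 52.5% in WT and from 41.0% to 48.7% in DKO, and the 4 values of DKO were again below those of WT.

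**Figure D4:**
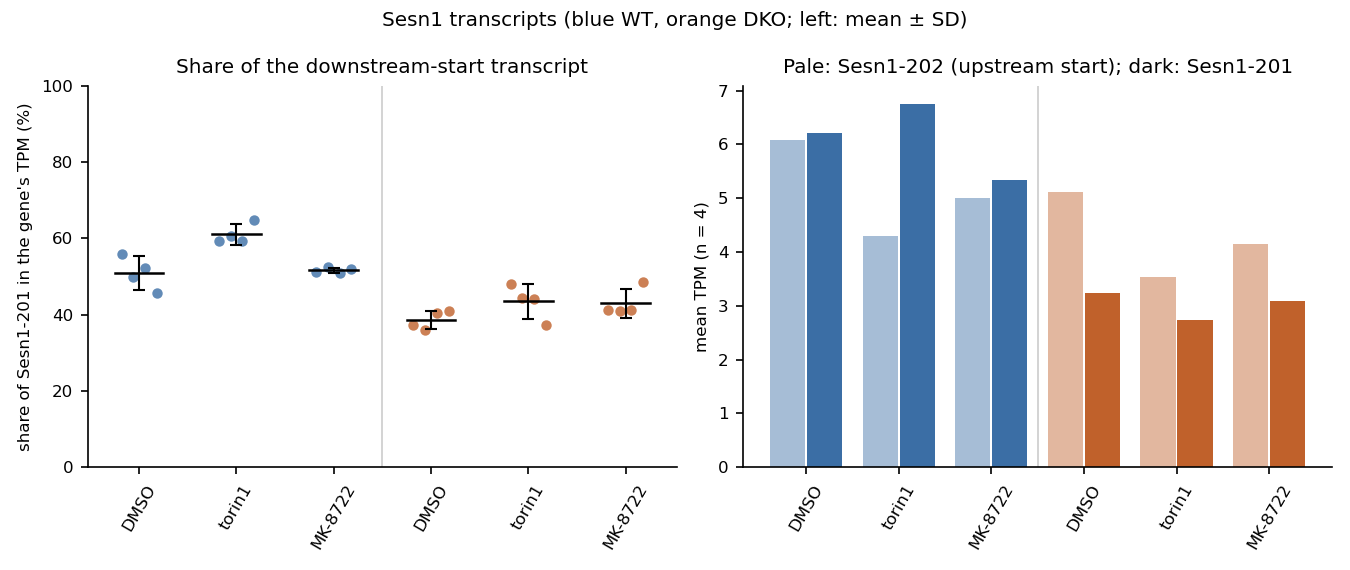
*Sesn1* transcripts by group in WT (blue) and DKO (orange): left, share of Sesn1-201 in the gene's TPM for each library in percent, with the mean ± SD (n = 4); right, mean TPM of Sesn1-202 (pale) and Sesn1-201 (dark). The share is 61.1% on average in WT with torin1 and 50.9% with DMSO, and the DKO means lie between 38.7% and 43.5%.

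Over the members 18 transcripts had a mean share from 10% to 90%, while *Sesn2* and *Ddit4* have 1 transcript each. For torin1 against DMSO the shares did not overlap in 3 of 18 in WT, against 7.18% of 30609 such transcripts of tested genes, and in 3 of 18 in DKO, against 7.55%. For MK-8722 they did not overlap in 0 of 18 in WT, against 3.25%, and in 3 of 18 in DKO, against 3.23%. Between DKO and WT they did not overlap in 3 of 18 under DMSO, against 6.20%, in 5 of 18 under torin1, against 8.78%, and in 2 of 18 under MK-8722, against 6.37%. Both *Sesn1* transcripts are among those of WT with torin1, DKO with MK-8722 and all 3 comparisons of genotype, and since their shares sum to 100% they count as 1 change. In DKO with MK-8722 the separation is marginal, since the lowest share of Sesn1-201 was 40.95% and the highest with DMSO 40.94%. The others were transcripts of *Tsc1*, 1 of *Tsc2* (Tsc2-217, whose share was 14.3% with DMSO and 16.5% with torin1 in WT) and 1 of *Sesn3* (Sesn3-204, at 47.4% in WT and 37.4% in DKO under torin1).

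Other genes of both branches were set beside the members, from lists written for this purpose. Over all genes torin1 raised 26.6% and lowered 20.5% in WT, and raised 23% and lowered 20.2% in DKO. MK-8722 raised 10.3% and lowered 5.87% of all genes in WT, and raised 5.47% and lowered 3.21% in DKO. Between DKO and WT under DMSO 23.5% of all genes were higher and 24.6% lower. Of 13 matched genes of the amino acid branch, torin1 raised 3 and lowered 2 in WT, and raised 6 and lowered 2 in DKO, although the median there was -0.06. The ends of that list were *Itfg2*, of the KICSTOR complex, which rose by 0.62 on the log2 scale in WT (SE 0.05, adjusted p = 1.97e-10), and *Sec13*, shared by GATOR2 and the COPII coat, which fell by 0.84 (SE 0.05, adjusted p = 8.01e-13). In DKO the ends were *Castor1*, given above, and *Sec13*, which fell by 0.71 (SE 0.05, adjusted p = 1.23e-11). Of 9 genes of the growth factor branch, torin1 raised 2 and lowered 3 in each genotype, with *Rhebl1*, a relative of RHEB, at the top and *Akt1*, the kinase that inhibits TSC2, at the bottom (log2 fold changes 0.92 and -0.78 in WT, 1.09 and -0.62 in DKO). With MK-8722, 1 gene of the amino acid branch rose and 1 fell in WT, and 1 fell in DKO, while in the growth factor branch 2 rose and 2 fell in WT and 1 rose in DKO. The medians of both lists stayed between -0.08 and 0.08 in the 4 drug comparisons. Between DKO and WT under DMSO the amino acid branch had 1 gene higher, *Castor1*, and 5 lower, the lowest being *Nprl3* of GATOR1 at -0.81 (SE 0.05, adjusted p = 6.45e-13). The growth factor branch had 5 higher and 2 lower, the lowest being *Ddit4l*, a relative of *Ddit4* with very few counts.

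Targets of the factors known to act on the members were counted in the same way, and the ATF4 and FOXO lists also hold the genes of the factors themselves. The counts with torin1 stand against 26.6% of all genes raised and 20.5% lowered in WT, and 23% and 20.2% in DKO. Of the 9 genes of the ATF4 list, *Atf4* and 8 targets, torin1 lowered all 9 in WT, with a median log2 fold change of -1.76, and 8 in DKO, with a median of -1.57. They ranged in WT from *Trib3*, a pseudokinase, at -3.94 (SE 0.29) to *Vldlr* at -0.69 (SE 0.29), and *Atf4* fell by 1.44 (SE 0.10, adjusted p = 2.41e-11). *Ddit4* and *Sesn2* at -2.91 and -1.80 lie inside that range, as does *Castor2* at -0.93. Whether ATF4 acted on them was not tested. Between DKO and WT, *Ddit4* and *Sesn2* were lower under each treatment. Of the ATF4 list 3 were higher and 0 lower under DMSO (median 0.19), against 23.5% and 24.6% of all genes. Under torin1 4 were higher and 1 lower (median 0.20), against 24% and 27.8%. The torin1 response was higher in DKO for 1 and lower for 0 (median -0.02), against 4.68% and 6.33%. Of the 9 genes of the FOXO list, *Foxo1*, *Foxo3* and 7 targets, torin1 raised 6 in WT, with a median of 0.91, and 8 in DKO, with a median of 0.77, and lowered *Bcl6* in both. Both medians are the values of *Foxo1*. Their highest were *Pik3ip1* in WT at 1.61 (SE 0.22) and *Ccng2* in DKO at 1.96 (SE 0.14), whereas *Sesn3* and *Sesn1*, also known as FOXO targets, had log2 fold changes between -0.51 and -0.15. Of 10 p53 targets torin1 raised 1 and lowered 4 in WT and lowered 7 in DKO, with medians of -0.16 and -0.48. The ends were *Trp53inp1* at 0.52 (SE 0.13) and *Phlda3* at -0.62 (SE 0.05) in WT, and *Cdkn1a* was lowest in DKO at -1.16 (SE 0.19). Of 10 HIF1A targets 3 rose and 3 fell in each genotype, with medians of -0.17 and 0.10. The ends were *Car9* at 1.89 (SE 0.39) and *P4ha1* at -0.88 (SE 0.11) in WT, and *Ndrg1* at 0.84 (SE 0.11) and *P4ha1* at -1.04 (SE 0.11) in DKO. With MK-8722 the medians of these 4 lists lay between -0.28 and 0.15. There 3 ATF4 targets fell in WT, against 5.87% of all genes, and 1, *Psat1*, fell in DKO by 0.41 (SE 0.11, adjusted p = 0.0128), against 3.21%. Of the 10 HIF1A targets 3 rose and 1 fell in WT, and 3 rose and 0 fell in DKO. Of the FOXO list 2 rose and 2 fell in WT, and 1 fell in DKO. Of the p53 targets 1 rose and 1 fell in WT, and 1 fell in DKO. The shares of all genes raised were 10.3% in WT and 5.47% in DKO.

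**Figure D5:**
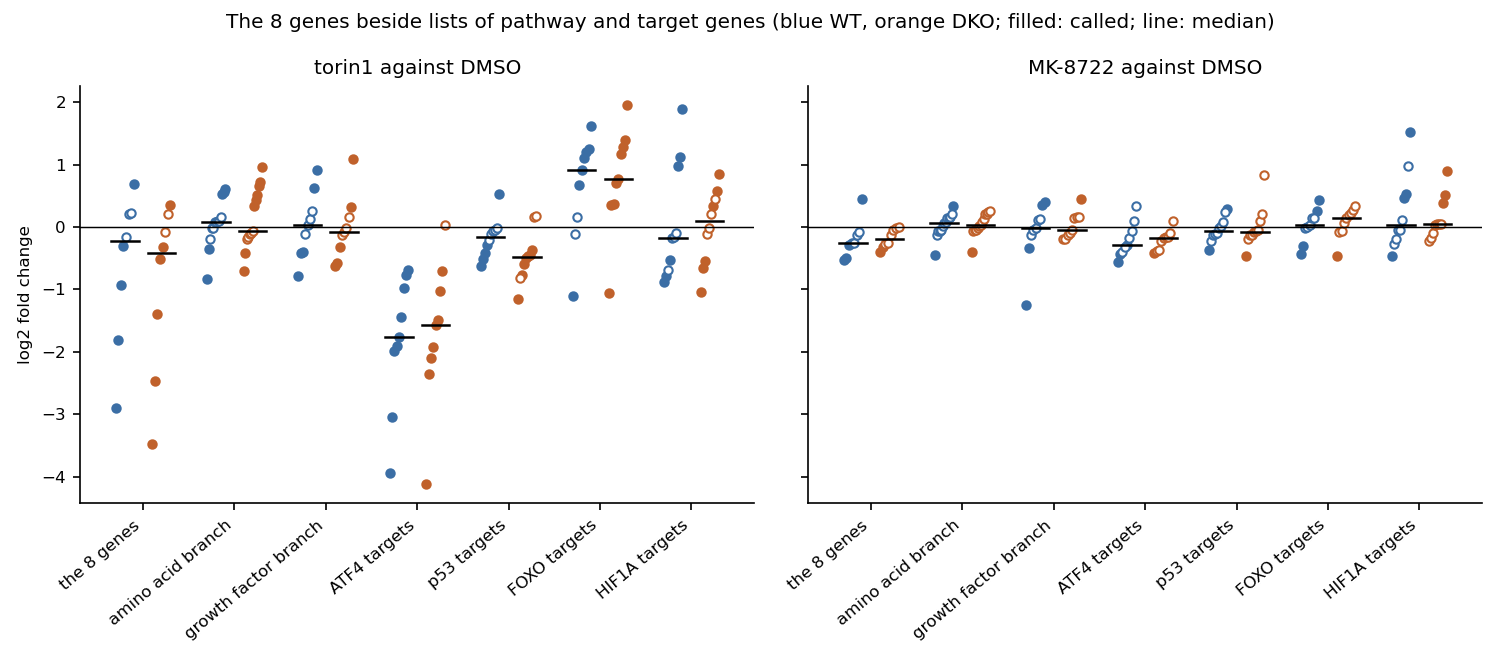
Log2 fold change with torin1 (left) and MK-8722 (right) against DMSO for the 8 members and the genes of 6 lists, in WT (blue) and DKO (orange); filled points were called, open ones were not, and black lines are medians. The ATF4 and FOXO lists include the factors' own genes. With torin1 they have medians of -1.76 and -1.57 (ATF4) and of 0.91 and 0.77 (FOXO).

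The genes whose log2 CPM was most alike over the 24 libraries were sought among the 11514 genes whose log2 CPM averaged 1 or more. The libraries fall into 6 groups, so the points are not independent and the correlations are a description. *Sesn2* and *Ddit4* were each other's closest gene of all (Pearson r = 0.987, Spearman rho = 0.977). Next came *Herpud1*, a gene of the endoplasmic reticulum stress response, and *Akt2* for *Sesn2* (r = 0.985 and 0.982), and *Traf3* and *Herpud1* for *Ddit4* (r = 0.985 for both). *Castor2* was closest to *Smdt1*, *Rtn3* and *Ensa* (r = 0.980, 0.975 and 0.974), and among members to *Sesn2* (r = 0.935). The TSC subunits had other neighbours: *Amdhd2*, *Ubxn6* and *Washc2* for *Tsc1* (r from 0.952 to 0.962), *Ltbp3*, *Grtp1* and *Eif3h* for *Tsc2* (r from 0.972 to 0.976), and *Akr1b10*, *Klhl36* and *Scrn3* for *Tbc1d7* (r from 0.954 to 0.971). *Tsc2* and *Tbc1d7* had r = 0.844 with each other, and *Tsc1* and *Ddit4* r = -0.496. *Sesn1* was closest to *Ndrg3*, *Arrb1* and *Ppp1r16a* (r from 0.940 to 0.955), and *Sesn3* had the weakest neighbours, *Vps53*, *Fhod3* and *Lrpap1* (r from 0.838 to 0.854).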

How the data were processed

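PolyA-selected mRNA of 24 MEF libraries had been sequenced with a strand-specific kit. The authors aligned the reads with STAR to GRCm38, took UMIs into account and quantified transcripts with Salmon. They deposited estimated counts and TPM for genes and transcripts. The labels name 1 batch for all libraries, and they give a passage number that is not the replicate number. The paper's methods also name a batch removal with limma, without saying what the batch was, and none was made here.

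Estimated counts were rounded to whole numbers. Genes were kept by filterByExpr (minimum count 10), scaled by TMM and tested with the quasi-likelihood test of edgeR 4.0.16 in the form of edgeR 3 (R 4.3.3), with 1 mean for each of the 6 groups. P-values were adjusted by Benjamini and Hochberg over all 15401 genes. A gene was called at an adjusted p under 0.05 and at least 1.2-fold. Levels are CPM, or TPM where genes are compared. The test was tried on simulated data first.

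Libraries of 1 replicate number had a median correlation of deviations of 0.044 (60 pairs, from -0.414 to 0.657), so the number was not taken as a pairing. For libraries of 1 passage within a genotype the median was 0.157 (24 pairs, from 0.022 to 0.657), against -0.039 for other passages (72 pairs, from -0.415 to 0.263). Passage as a block changed 1 of 64 values: the call of *Ddit4* with MK-8722 in DKO was gained. Alternatives were other scaling, filter, length offset, test forms, DESeq2 1.42.0, blocks for replicate number or passage, and libraries left out. The passage block was not run between genotypes. The members and gene lists were chosen with earlier results of these data known. Genes named beside the members are *Tfeb* and *Tfe3*, the 3 genes most correlated with each member, and the highest and lowest called gene of each list, of which only some are printed and 1 is not reported here. *Thy1*, *Adgre1*, *Cd68*, *Krt8*, *Des*, *Castor1*, *Pkd1*, *Atf4*, *Foxo1*, *Foxo3* and the genes at the ends of the lists in another comparison were named after their values were seen. *Kics2* was not matched, *Ddit3* was carried by 2 entries and left out, and *Klf15* had too few counts to be tested.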

Additional observations from a re-analysis of the deposited data

Results flagged for a closer look

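The response to torin1 differed between DKO and WT by the interaction test for 4 members. On the log2 scale, DKO minus WT, the difference was -0.67 for *Sesn2*, -0.58 for *Ddit4*, -0.47 for *Castor2* and -0.34 for *Tsc1*. The response to MK-8722 differed by -0.44 for *Tsc1* and by 0.44 for *Sesn3*. The values for *Ddit4* with torin1 and *Sesn3* with MK-8722 are those whose calls were lost in most alternatives.

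Single libraries stood apart from the other 3 of their group by Dixon's criterion in 3 of 48 groups of gene levels and 5 of 108 groups of transcript shares, where chance gives about 1 in 20 groups. *Sesn3* was 40.14 CPM in WT replicate 2 under DMSO, against 34.46 to 35.33 in the others. DKO replicate 1 under DMSO stood apart for both *Sesn3*, at 33.17 CPM against 25.52 to 26.35, and *Tsc1*, at 61.96 CPM against 53.98 to 54.85.

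Among the shares, DKO replicate 4 under MK-8722 had 51.33% of Sesn1-202 and thus 48.67% of Sesn1-201, where the others had 58.73% to 59.05% and 40.95% to 41.27%. WT replicate 1 under torin1 had 17.98% of Tsc2-210, against 13.85% to 14.41%, and 83.85% of Castor2-201, against 95.64% to 97.14%. Tsc2-221 was 10.12% in DKO replicate 2 under MK-8722, against 12.2% to 12.36%.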

How the results depend on the processing

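Over the members, most values kept their direction and call: 88 of 88 with the DESeq2 Wald test, 87 of 88 with DESeq2 size factors, 74 of 88 with the length offset and 769 of 832 with 1 library left out. With the replicate block 87 of 88 did, the exception being *Ddit4* in the response to torin1 (-0.58, adjusted p = 0.0611). For the response to MK-8722 the number of members called went from 2 to 1 without the DKO passage 8 libraries, with library size alone, with no filter and with the length offset. It ranged from 1 to 2 with 1 library left out, and that of MK-8722 in DKO from 1 to 3. With shares of estimated counts, 1 transcript rather than 3 did not overlap for MK-8722 in DKO. Library size alone moved the median of all genes to 0.14 for torin1 in WT, to -0.16 for DKO against WT under torin1 and to 0.12 for torin1 against MK-8722 in WT.

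Values that changed sign were not called. With the length offset these were *Sesn3* with torin1 in WT (0.05), *Sesn1* for torin1 against MK-8722 in WT (0.03), *Tbc1d7* with MK-8722 in DKO (0.01) and *Tsc2* in the response to MK-8722 (0.05). With library size alone they were *Sesn1* for torin1 against MK-8722 in WT (0.07) and *Sesn3* for DKO against WT under MK-8722 (-0.02). Without passage 11 of WT it was *Sesn1* in the response to MK-8722 (-0.01), and without passage 8 of DKO *Tbc1d7* for torin1 against MK-8722 in DKO (0.04). With 1 library left out the ranges were -0.12 to 0.03 for *Castor2* and -0.05 to 0.13 for *Sesn1* in the response to MK-8722, -0.06 to 0.02 for *Sesn1* for torin1 against MK-8722 in WT and -0.12 to 0.01 for *Tbc1d7* in DKO. With MK-8722 in DKO they were -0.09 to 0.05 for *Sesn3*, -0.07 to 0.03 for *Tbc1d7* and -0.02 to 0.05 for *Tsc1*. The causes were not tested.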
